A study of Mus musculus with 6 samples.

Results

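A set of 10 Notch pathway genes was followed in RNA sequencing of mouse group 2 innate lymphoid cells (ILC2s), a kind of lymphocyte that lacks an antigen receptor and secretes type 2 cytokines. The genes are the ligands Jag1 and Jag2, the receptors Notch1 and Notch2, the receptor modifier Lfng, the regulator Dtx1, the nuclear factors Rbpj and Maml1, and the targets Hes1 and Nrarp. All 10 were found by symbol among the 27179 Entrez gene IDs of the deposited table, and all 10 passed the filter on low counts. They were brought together with the Chat gate comparison of these libraries already known, so their gate values are a description, and no test of that contrast on them is used as evidence. Chat is the gene of choline acetyltransferase, which synthesises the transmitter acetylcholine. Sorted ILC2s came from a negative or a positive Chat sorting gate, with 3 samples a gate numbered 1 to 3. For the mice, the sources used here do not give the tissue, genotype, age, any stimulus or the way Chat was detected.

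Notch signalling passes between touching cells. A Jagged or Delta ligand on one cell binds a Notch receptor on the next, ADAM proteases and then the gamma-secretase complex cut the receptor, and its freed intracellular part enters the nucleus, where it joins the DNA-binding protein RBPJ and a Mastermind coactivator to switch on targets such as Hes1. In lymphoid development the pathway is best known for committing progenitors to the T cell lineage, and it also takes part in the formation of innate lymphoid cells.

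Libraries held between 37154269 and 50361306 counts. Levels below are CPM, a gene's raw count scaled to a common library total. Each log2 change is the positive gate minus the negative gate, from edgeR with scaled library sizes, and has a standard error (SE). As a check of the labels, Chat itself read 16.5, 26.6 and 17.1 CPM across Chat negative samples 1 to 3, and 188, 172 and 204 CPM across Chat positive samples 1 to 3 (edgeR adjusted p = 0.0174, and 0.0961 when the number was added as a replicate block). The ILC2 genes Gata3 (1639 to 2494 CPM) and Il1rl1 (59.0 to 159 CPM) were present in every library. The libraries numbered 2 stood apart in both gates. Their deviations from the gate mean correlated across genes (r = 0.67, against 0.29 and 0.43 for numbers 1 and 3), so results below are also given by number. No label ties the samples of 1 gate to different animals, so a p-value reflects only how far these samples lie apart, and that may be technical.

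Jag1 encodes a membrane ligand that binds Notch receptors on neighbouring cells (Entrez 16449, mm10 chromosome 2, 137081451 to 137116520). Its level was 92.5, 77.8 and 72.1 CPM across Chat negative samples 1 to 3, and 44.9, 41.8 and 47.6 CPM across Chat positive samples 1 to 3. Every Chat negative library was above every Chat positive library. The gate means were 80.8 ± 10.5 and 44.8 ± 2.94 CPM (SD, n = 3 each), a log2 change of -0.87 (SE 0.13), or 1.82-fold lower in Chat positive cells. Within a number, the Chat positive library held 48.6%, 53.7% and 66.1% of the Chat negative level for numbers 1, 2 and 3. Among the 8376 tested genes with a mean of at least 10 CPM, whose log2 changes had an SD of 0.19, that of Jag1 ranked 4 from the most negative. In bulk samples, fewer cells with a transcript and less transcript per cell cannot be told apart.

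Jag1 is also made by endothelial, epithelial and stromal cells, so their markers were read beside it. Of 7 endothelial markers, Cdh5, Kdr and Emcn had 0 counts in all 6 libraries and Tek and Vwf stayed under 1 CPM. The summed endothelial list ran from 57.5 to 90.1 CPM in Chat negative and from 68.6 to 109 CPM in Chat positive libraries, most of it Pecam1. The 7 stromal markers summed to 3.86 to 8.14 and 2.99 to 8.34 CPM. The 7 epithelial markers summed to 42.8 to 91.4 CPM in Chat negative and 38.7 to 61.6 CPM in Chat positive libraries. Most of that was Epcam, at 82.0, 35.1 and 85.3 CPM across Chat negative samples 1 to 3, and 55.0, 32.2 and 52.7 CPM across Chat positive samples 1 to 3. Sftpc had 0 counts, Krt8 at most 0.0464 CPM and Krt19 at most 0.834 CPM. Cdh1 ran from 0.603 to 4.12 CPM in Chat negative and from 0.377 to 1.18 CPM in Chat positive libraries. In the same order, Krt18 ran from 0.749 to 1.91 and from 1.07 to 2.52 CPM, and Muc1 from 1.68 to 5.17 and from 2.61 to 3.53 CPM. The 8 macrophage and dendritic cell markers summed to 139 to 160 CPM in Chat negative and 143 to 170 CPM in Chat positive libraries. Most of that was Xcr1, while Csf1r, Itgax, Lyz2, Flt3 and Siglech stayed under 1 CPM. In the same order, the 6 B cell markers, mostly Cd79b, summed to 66.6 to 72.9 and 70.1 to 85.65 CPM. The 7 T cell markers, mostly Cd3g, summed to 25.4 to 45.3 and 20.9 to 45.1 CPM. The part of Epcam-bearing or other cells in the Jag1 difference was not tested.

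The 250 bases before the RefSeq start of Jag1 (GRCm38.p6, the assembly behind mm10, chr2:137116521-137116770, minus strand) are shown because its log2 change was the largest of the 10. The core RBPJ motif TGGGAA, or its reverse complement TTCCCA, was searched on both strands and is not among these letters, so the whole run is in lower case.
Jag1: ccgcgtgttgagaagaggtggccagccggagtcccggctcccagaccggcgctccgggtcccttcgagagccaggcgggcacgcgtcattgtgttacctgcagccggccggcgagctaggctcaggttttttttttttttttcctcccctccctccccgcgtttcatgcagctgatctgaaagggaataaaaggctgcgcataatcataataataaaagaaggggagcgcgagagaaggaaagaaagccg

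Jag2, a second Jagged ligand (Entrez 16450, chromosome 12, 112907803 to 112929812), stood at 8.89, 3.11 and 10.6 CPM across Chat negative samples 1 to 3, and at 8.02, 3.00 and 9.19 CPM across Chat positive samples 1 to 3. The gates overlapped, with a log2 change of -0.18 (SE 0.56), and both libraries numbered 2 were low. Of the Delta-type ligands, Dll1 had at most 5 counts in a library, Dll3 and Dll4 at most 2 each and the Delta-like Dlk2 at most 4, so these 4 genes were not tested. Dlk1, a Delta-like protein without the usual receptor-binding domain, had 2 to 43 counts and did not pass the test (log2 change -1.02, SE 0.94). Leaving out single libraries moved that value from -2.19 (without Chat positive 2) to 0.03 (without Chat negative 2).

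**Figure D1:**
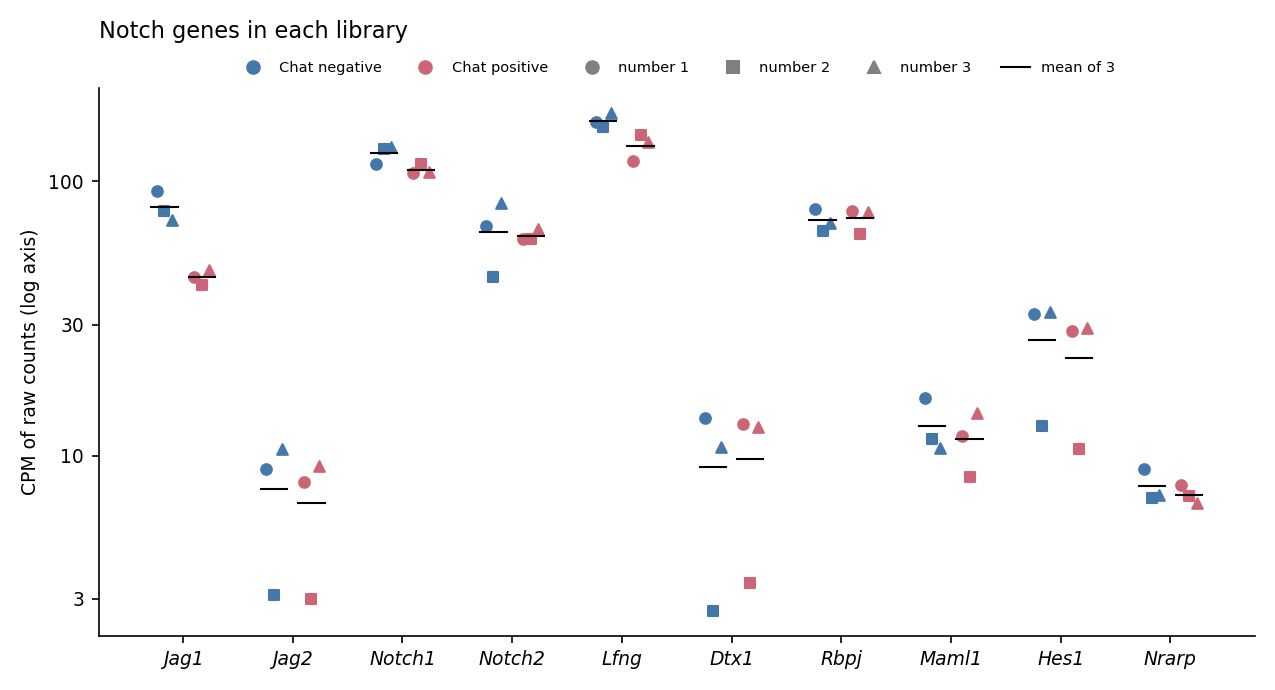
CPM of raw counts of the 10 genes in each of the 6 libraries (log axis), coloured by Chat gate and shaped by sample number, with a bar at the mean of 3. The 3 Chat positive Jag1 points lie at 41.8 to 47.6 CPM, below the 72.1 to 92.5 CPM of Chat negative samples, while Jag2, Dtx1 and Hes1 drop in the samples numbered 2 of both gates.

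Notch1, a receptor that T cell progenitors need (Entrez 18128, chromosome 2, 26457902 to 26503822), stood at 116, 131 and 133 CPM across Chat negative samples 1 to 3, and at 107, 116 and 108 CPM across Chat positive samples 1 to 3. The gates did not overlap, but the closest pair lay at 116.1 and 115.7 CPM. The means were 127 ± 9.34 and 110.2 ± 4.83 CPM (SD, n = 3 each), a log2 change of -0.22 (SE 0.10). Exons of genes on the other strand cover 9.8% of Notch1 exon bases, and with no known strand setting their reads cannot be told apart. Its upstream 250 bases (chr2:26503823-26504072, minus strand) are shown as those of the receptor that, like Jag1, did not overlap between the gates, and also hold no RBPJ core motif.
Notch1: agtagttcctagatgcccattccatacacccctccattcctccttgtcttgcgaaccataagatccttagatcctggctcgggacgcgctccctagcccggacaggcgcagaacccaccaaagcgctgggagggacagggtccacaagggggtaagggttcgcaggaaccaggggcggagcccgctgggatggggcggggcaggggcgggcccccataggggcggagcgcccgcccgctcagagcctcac

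Notch2, a receptor closely related to Notch1 (Entrez 18129, chromosome 3, 98013538 to 98150367), stood at 68.7, 44.6 and 83.3 CPM across Chat negative samples 1 to 3, and at 61.5, 61.4 and 67.1 CPM across Chat positive samples 1 to 3. Its Chat positive values fell inside the range of the Chat negative ones, with a log2 change of -0.07 (SE 0.23). Notch3 had 1 to 29 counts a library and was not tested. Notch4 had 11 to 54 counts and did not pass the test (log2 change 0.40, SE 0.61, and -0.09 to 0.82 with single libraries left out). Exons of another gene on the same strand cover 5.0% of Notch2 exon bases.

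Lfng encodes Lunatic fringe, a sugar transferase that extends O-fucose on Notch receptors and shifts their response to Delta against Jagged ligands (Entrez 16848, chromosome 5, 140607341 to 140615545). It stood at 165, 158 and 177 CPM across Chat negative samples 1 to 3, and at 119, 147 and 139 CPM across Chat positive samples 1 to 3, with no overlap. The means were 167 ± 9.83 and 135 ± 14.4 CPM (SD, n = 3 each), a log2 change of -0.32 (SE 0.11). Within a number, Chat positive libraries held 72.2%, 93.1% and 78.2% of the Chat negative level. The 250 bases upstream of Lfng (chr5:140607091-140607340, plus strand) are shown as the third gene without overlap. They hold the RBPJ core motif once on each strand, in capitals, beginning 135 and 108 bases before the start.
Lfng: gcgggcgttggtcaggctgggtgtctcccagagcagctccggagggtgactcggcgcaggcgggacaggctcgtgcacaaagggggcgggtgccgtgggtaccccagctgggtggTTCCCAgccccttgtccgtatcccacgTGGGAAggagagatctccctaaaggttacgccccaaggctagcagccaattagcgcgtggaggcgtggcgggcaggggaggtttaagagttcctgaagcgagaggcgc

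Across all 32851 RefSeq windows of 250 bases, 21.6% hold at least 1 core motif and 2.77% at least 2. Of the 9 genes here with a window, Lfng and Rbpj hold it in at least 1, and of 68 other pathway genes with a window 19 do. A gene can have more than 1 window, as Rbpj does with 2, so these counts of genes are not shares of windows. A match of 6 letters is a description of the sequence and not a binding site.

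Dtx1, an E3 ubiquitin ligase of the Deltex family that regulates Notch receptors (Entrez 14357, chromosome 5, 120680203 to 120711867), stood at 13.7, 2.71 and 10.8 CPM across Chat negative samples 1 to 3, and at 13.1, 3.44 and 12.7 CPM across Chat positive samples 1 to 3. The gates overlapped, and the low libraries were number 2 of each gate. The log2 change between gates was 0.09 (SE 0.68).

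Rbpj, the DNA-binding partner of the cut receptor (Entrez 19664, chromosome 5, 53555779 to 53657445), stood at 79.5, 66.1 and 70.7 CPM across Chat negative samples 1 to 3, and at 78.0, 64.4 and 77.3 CPM across Chat positive samples 1 to 3. With means of 72.1 ± 6.78 and 73.2 ± 7.67 CPM (SD, n = 3 each), its log2 change was 0.01 (SE 0.13). The coactivator Maml1 (Entrez 103806, chromosome 11, 50255634 to 50293131) stood at 16.2, 11.5 and 10.7 CPM across Chat negative samples 1 to 3, and at 11.8, 8.38 and 14.3 CPM across Chat positive samples 1 to 3. Its gates overlapped, and number 3 lay in the other direction from numbers 1 and 2.

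Hes1, a transcriptional repressor and a classic direct target of Notch (Entrez 15205, chromosome 16, 30065357 to 30067796), stood at 32.9, 12.8 and 33.3 CPM across Chat negative samples 1 to 3, and at 28.4, 10.6 and 29.2 CPM across Chat positive samples 1 to 3. The Chat positive library held 86.4%, 82.6% and 87.8% of the Chat negative level of its number, a small gap beside the drop in number 2. Over the gates the log2 change was -0.23 (SE 0.49), with overlap. Nrarp, a target that feeds back to restrain Notch (Entrez 67122, chromosome 2, 25180758 to 25183339), stood at 8.96, 6.98 and 7.19 CPM across Chat negative samples 1 to 3, and at 7.78, 7.09 and 6.73 CPM across Chat positive samples 1 to 3, with overlap. Exons of a gene on the other strand cover 79.4% of Nrarp exon bases, so its counts may include that gene's reads.

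Counted together, 3 of the 10 genes (Jag1, Notch1 and Lfng) were lower in every Chat positive than in every Chat negative library, beside 3.04% of all tested genes, and 0 were higher in every one, beside 5.28% (8.32% of genes did not overlap in either direction). Of the 10, 8 had a log2 change below 0, with a median of -0.18 beside 0.00 over all 12967 genes. edgeR's quasi-likelihood test with Benjamini-Hochberg adjustment at 5% called 0 of the 10, beside 0.00771% of all genes, and 2 had an unadjusted p under 0.05, beside 2.43%. DESeq2 called 1 of the 10, beside 0.0161% of the 18650 genes to which it gave an adjusted p. edgeR with the replicate block called 1, beside 0.339% of the 12967. DESeq2 with that block called 2, beside 5.08% of the 8889 genes given an adjusted p there, and Jag2 got none. Gathering the genes with this contrast known favoured such calls, so the counts are given for completeness and nothing is read from them.

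**Figure D2:**
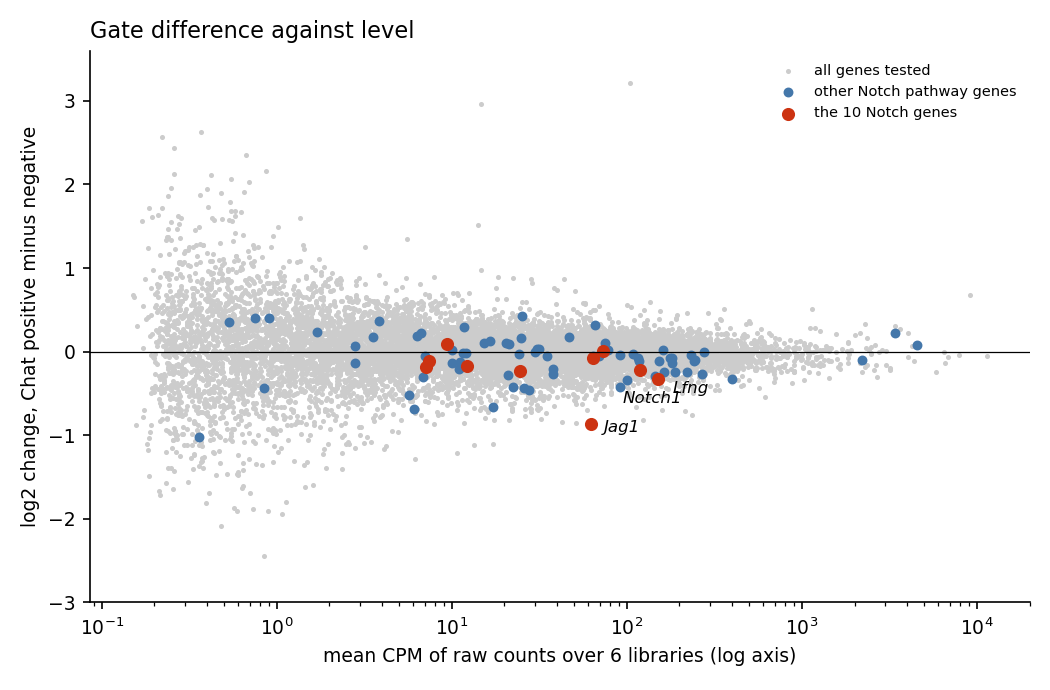
Log2 change between the gates against mean CPM over 6 libraries (log axis) for 12967 tested genes (grey), the other Notch pathway genes (blue) and the 10 Notch genes (red). Jag1, at -0.87, lies below the other red points, and Lfng and Notch1, at -0.32 and -0.22, lie closer to 0.

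Levels were compared between genes as CPM per kilobase of the longest GENCODE transcript, as mean ± SD over 6 libraries. Lfng was highest at 65.4 ± 8.95. Hes1 (16.7 ± 6.91), Rbpj (13.3 ± 1.19), Notch1 (12.5 ± 1.19) and Jag1 (11.2 ± 3.72) followed, and neighbours among these 4 differed by less than the larger SD of each pair. Notch2 lay lower at 6.14 ± 1.199. Nrarp (2.89 ± 0.316), Dtx1 (2.33 ± 1.24) and Maml1 (2.198 ± 0.499) likewise differed from their neighbours among these 3 by less than the larger SD, and Jag2 was lowest at 1.397 ± 0.640. On this scale Jag1 stood at 14.4 beside 13.4 for Notch1 in Chat negative cells, and at 7.98 beside 11.6 in Chat positive cells.

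The rest of the pathway was read from a list of 87 further genes, grouped by role, of which 72 were tested. In edgeR none passed in either direction (0 higher, 0 lower, beside 0.00771% of all genes), without or with the replicate block, and DESeq2 also called 0. In all, 4 of the 72 had an unadjusted p under 0.05 in edgeR, beside 2.43% of all genes, and all 4 were below 0. Among them were Nedd4 (log2 change -0.25, SE 0.09), Ep300 (-0.34, SE 0.13) and Crebbp (-0.42, SE 0.18), the last named after its values were seen. DESeq2 with the block called 2 higher (Furin and Ccnc) and 5 lower (among them Tle5, Bcl11b, Ep300 and Nedd4). It called 5.08% of the 8889 genes to which it gave an adjusted p, and Dlk1 and Notch4 got none. Bcl11b too is named after its values were seen. Of the 72, 45 had a log2 change below 0 and the median was -0.05, while 49.2% of all genes were below 0. Taken within numbers 1, 2 and 3, the median log2 CPM difference was -0.063, -0.015 and 0.019 (SD 0.041). Its sign was thus not shared by the 3 numbers. Of the 72, 3 were lower without overlap between the gates (among them Nedd4 and Ep300), beside 3.04% of all genes, and 0 were higher without overlap, beside 5.28%.

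Receptor cleavage and glycosylation genes were measured in both gates. Furin, the protease that first cleaves the receptor in the secretory pathway, stood at 3140 ± 227 CPM in the negative gate and at 3713 ± 555 CPM in the positive gate. The surface protease Adam10 stood at 251 ± 13.3 and 237 ± 27.3 CPM, and Ncstn, a gamma-secretase subunit, at 275.0 ± 13.97 and 277 ± 12.6 CPM (SD, n = 3 each). None of the 10 cleavage genes passed in edgeR, and 7 were below 0, beside 49.2% of all genes. Of 9 tested glycosylation genes none passed and 6 were above 0. Among them Mfng, the Manic fringe relative of Lfng, stood at 91.7 ± 11.8 and 90.1 ± 10.3 CPM, Poglut1, which adds O-glucose, at 73.4 ± 8.71 and 76.0 ± 2.75, and Gxylt1, which extends O-glucose, at 40.3 ± 6.51 and 35.5 ± 1.86.

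Ubiquitin ligases that drive ligand endocytosis in the sending cell were tested for 5 genes, and none passed. Mib1, which ubiquitinates ligands, stood at 28.9, 16.5 and 17.8 CPM across Chat negative samples 1 to 3, and at 8.83, 8.24 and 23.4 CPM across Chat positive samples 1 to 3, so that number 3 lay in the other direction from numbers 1 and 2. Its log2 change was -0.66 (SE 0.45), and leaving out single libraries moved it from -1.34 (without Chat positive 3) to -0.36 (without Chat negative 1). Its relative Mib2 stood at 19.5 ± 6.44 and 21.3 ± 5.55 CPM, and Neurl3, a Neuralized family member, at 69.9 ± 2.94 and 68.2 ± 5.27 CPM.

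Of 11 tested genes for receptor turnover and trafficking, 9 were below 0, beside 49.2% of all genes, and none passed. The ubiquitin ligase Nedd4 stood at 234, 233 and 249.7 CPM across Chat negative samples 1 to 3, and at 200.1, 209 and 203 CPM across Chat positive samples 1 to 3. The ligases Itch (179 ± 27.5 and 173 ± 17.9 CPM) and Dtx3l (158 ± 46.2 and 131.5 ± 20.2 CPM) overlapped between the gates.

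Nuclear repressors, which hold targets off when the receptor is silent, were below 0 for 13 of 17 genes, beside 49.2% of all genes. Their median log2 change was -0.20 and none passed the test. The corepressors Ncor1 (205 ± 19.5 and 174 ± 48.9 CPM), Ctbp1 (291 ± 28.7 and 244 ± 30.03 CPM) and Tle5 (443 ± 81.4 and 357 ± 102 CPM) had the highest mean CPM of this role and overlapped between the gates. In numbers 1 and 2 their Chat positive libraries held 66.7% to 76.7% of the Chat negative level. The lean was not shared by number 3, at 114.7% for Ncor1, 107.5% for Ctbp1 and 97.1% for Tle5. Nuclear activators were mixed, with 5 of 9 below 0 and none past the test. The acetyltransferase Ep300 stood at 113, 107 and 115 CPM across Chat negative samples 1 to 3, and at 76.3, 104 and 89.1 CPM across Chat positive samples 1 to 3. Snw1, a cofactor of RBPJ, stood at 159 ± 23.3 and 163 ± 18.2 CPM, although exons of another gene on the other strand cover 44.2% of its exon bases. Ccnc, the cyclin partner of CDK8, stood at 58.5 ± 12.1 and 73.7 ± 14.1 CPM.

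Targets other than Hes1 and Nrarp were mixed, with 5 of 9 tested genes above 0 and none past the test. Il2ra, the alpha chain of the IL-2 receptor, stood at 4379 ± 1243 and 4691 ± 1033 CPM. Gata3, the ILC2 lineage factor, stood at 2264 ± 367 and 2136 ± 431 CPM, and Myc at 250.3 ± 31.8 and 234 ± 29.5 CPM. Hes5 and Ptcra had 0 counts in all 6 libraries, as did Rbpjl and Gxylt2 of the other roles. From counting error alone, 0 counts leave room for 3, which is 0.0807 CPM at the lowest depth.

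**Figure D3:**
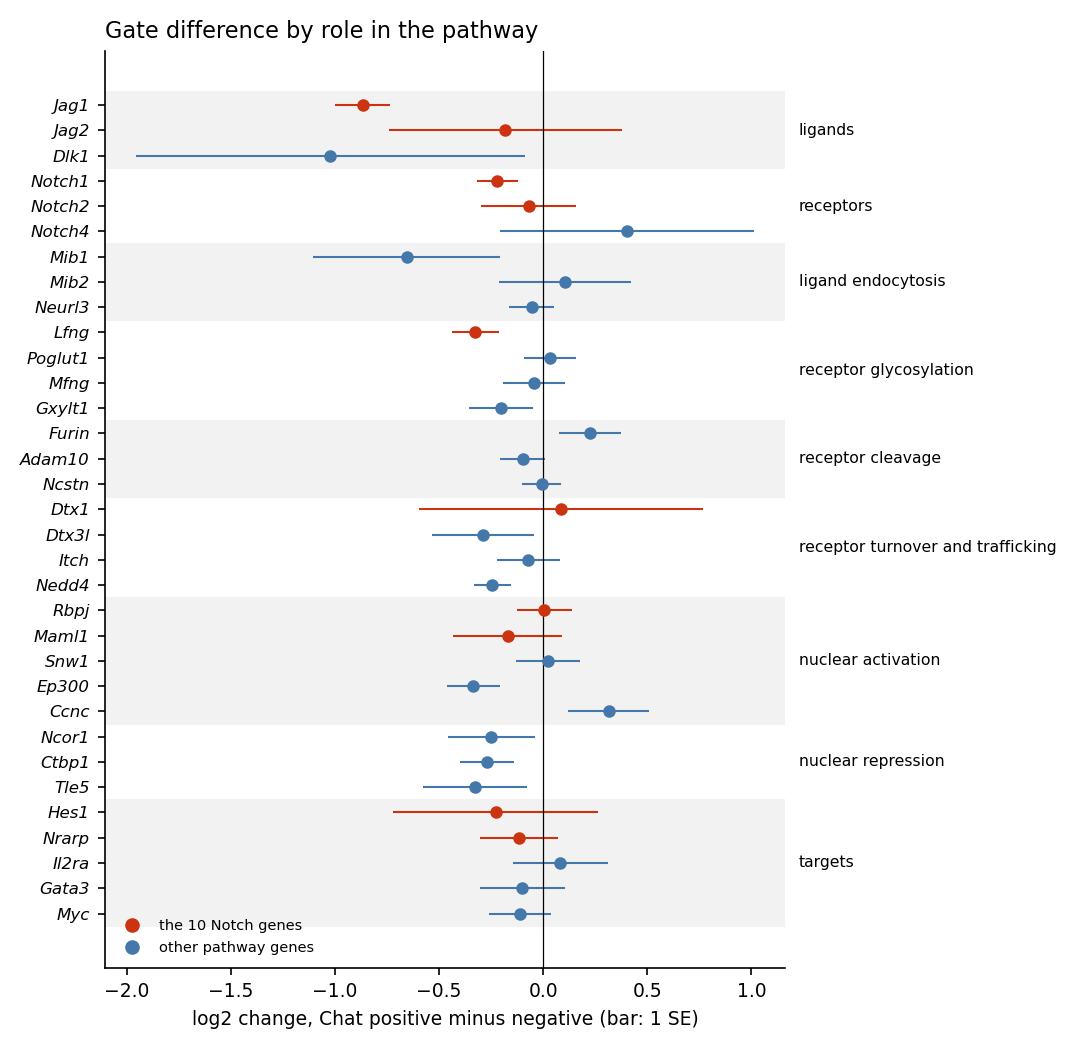
Log2 change between the gates (bar: 1 SE) for the 10 Notch genes (red) and the other named and tested pathway genes (blue), ordered by role. Jag1 (-0.87, SE 0.13) lies farthest from 0 relative to its error, and the other red points lie between -0.32 (Lfng) and 0.09 (Dtx1).

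Replicate number separated several of these genes more than the gate did. The numbers were not used to choose the genes, so they were tested, in an edgeR quasi-likelihood test of the number terms beside the gate, added after the data were seen. It called 4 of the 10 genes, or 40.0%, beside 32.5% of all genes, so the share is near that of the whole table. All 4 had their lowest level in number 2. Called and lowest there were 40.0% of the 10 genes, beside 22 of the 72 other tested pathway genes and 14.8% of all genes tested. Of all the genes called, 45.6% were lowest there. The 4 were Hes1 (edgeR adjusted p = 5.82e-05), Dtx1 (1.06e-04), Jag2 (4.36e-04) and Rbpj (0.0496). Hes1 was 2.64-fold, Dtx1 4.09-fold and Jag2 3.004-fold higher in the mean of numbers 1 and 3 than in number 2, with the number 2 libraries lowest in both gates. Rbpj was 1.17-fold higher. Jag1 (edgeR adjusted p = 0.327), Notch1 (0.401) and Lfng (0.339) did not pass in this test. Without both number 2 libraries, the edgeR test of number 3 against number 1 called 0 of 13025 genes. At an unadjusted p under 0.05 were 1680 of the 13025, and 2 of the 10 Notch genes.

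Of the other 72 pathway genes, the number test called 33, or 45.8%, beside the same 32.5%. Hey1, another Hes-family target named here after its values were seen, stood at 3.44, 0.325 and 6.13 CPM across Chat negative samples 1 to 3, and at 4.09, 0.953 and 6.36 CPM across Chat positive samples 1 to 3. It was thus low in number 2 of both gates, as Hes1 and Dtx1 were. The basophil protease gene Mcpt8 also moved with the number, at 133, 31.02 and 199 CPM across Chat negative samples 1 to 3, and 123, 25.5 and 147 CPM across Chat positive samples 1 to 3. Of the other mast cell and basophil markers, Mcpt4, Cpa3, Ms4a2 and Prss34 had 0 counts and Fcer1a stayed under 1 CPM. The part of Mcpt8-bearing cells in the number differences was not tested.

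**Figure D4:**
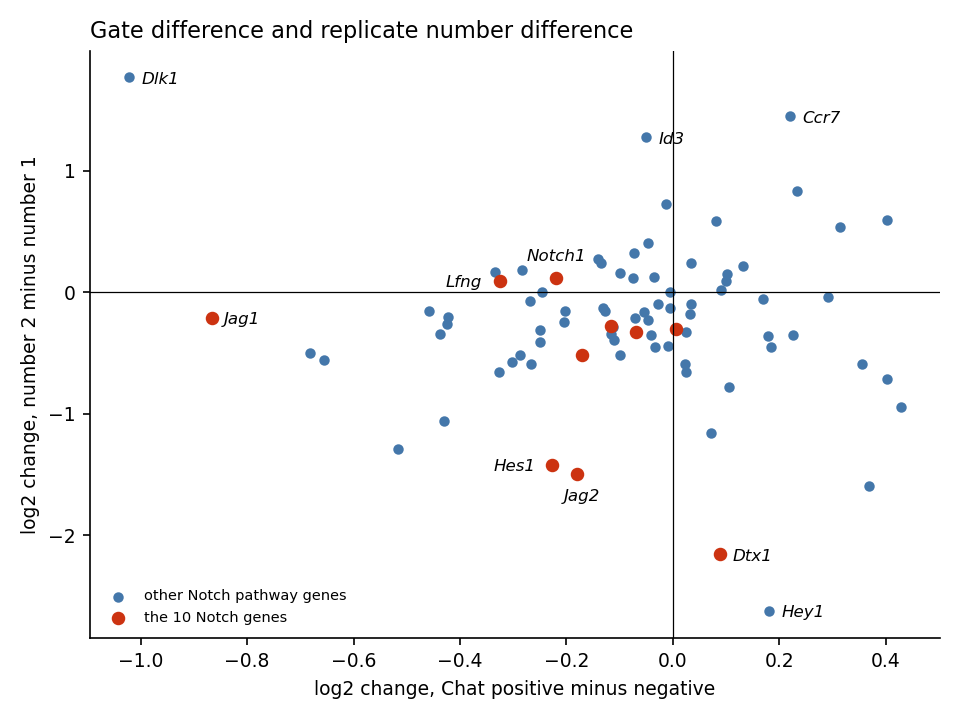
Log2 change between the gates (horizontal) against log2 change from number 1 to number 2 (vertical) for the 10 Notch genes (red) and the other tested pathway genes (blue). Among the red points, Jag1 lies farthest along the gate axis at -0.87, while Hes1 (-1.42), Jag2 (-1.49) and Dtx1 (-2.16) lie farthest along the number axis.

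The genes with a profile most like that of Jag1 were found by the root mean square difference between centred log2 CPM over the 6 libraries, among 8375 genes of at least 10 CPM. They were the giant scaffold gene Ahnak (difference 0.135), the actin regulator Enah (0.185), the potassium channel Kcnq5 (0.189), the transcription factor Foxo1 (0.189) and the membrane protein Heg1 (0.191). Ahnak stood at 304, 233 and 264 CPM across Chat negative samples 1 to 3, and at 172.0, 137 and 185.5 CPM across Chat positive samples 1 to 3. Being chosen for likeness to a profile that is split by gate, these genes were bound to lean the same way, so their gate values are no further evidence. Of the Notch genes, Jag2, Dtx1 and Nrarp had a mean under 10 CPM and were not ranked. Among the others, Lfng was the most like Jag1, at rank 203 with a difference of 0.324, and Notch1 followed at rank 670. The Notch genes were gathered with the gate contrast known, so nothing is read from these ranks.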

How the data were processed

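Raw read counts per Entrez gene were used as the authors deposited them, in 1 column per library. Their values are whole and their column sums differ, so they were read as unscaled. Per the labels' protocols, libraries of the sorted cells were made with a SMARTer ultra-low kit. CASAVA 1.8.2, STAR 2.3.0 and the mm10 build appear in the submitters' processing notes. The program that counted reads, and its strand setting, is not given in the sources used here. Symbols and coordinates came from RefSeq GRCm38.p6, which matched 25275 of 27179 IDs, and promoter sequences from the same build. CPM are counts over the library total.

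The gates were compared in R 4.3.3 with edgeR 4.0.16 (filterByExpr, TMM factors, robust quasi-likelihood F-test, two-sided, Benjamini-Hochberg over 12967 genes, threshold 5%), in all 6 libraries and without the replicate number. Each edgeR SE is the absolute log2 change over the square root of its F statistic. The models were tested on simulated data. Those counts had the same spread setting for every gene, changes larger than that of Jag1 and, for the gate fits, no number effect. That run checks the code and does not measure power or error in these libraries. Alternatives were RLE or no scaling factors, no filter, DESeq2 1.42.0, the number as a block, and leaving out each library. Added after the data were seen were DESeq2 with the block, fits without both libraries numbered 2 and the test of the number. The pairing follows the numbers in the sample titles. Libraries numbered 2 deviated together across genes (r = 0.67), against 0.29 and 0.43 for numbers 1 and 3. Deviations from a gate mean cancel within the gate, so number 2 standing apart by itself raises r among numbers 1 and 3. Number 1 of the negative gate reached 0.30 with number 3 of the positive gate, and number 3 of the negative gate 0.20 with number 1 of the positive gate. The r of 0.29 thus does not show a pairing for number 1. The genes and lists were chosen with earlier results of these data known. Named are Chat, the 10 genes, every other ligand and receptor, the 3 most abundant other genes of each role, any past the threshold and the 5 most like Jag1. A gene of the list is not reported here. Libraries held 37154269 to 50361306 counts (TMM factors 0.980 to 1.02), and a count of 0 allows up to 3 counts.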

Additional observations from a re-analysis of the deposited data

How the results depend on the processing

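edgeR called 1 gene between the gates (Chat), also with RLE factors, library size alone or no filter. DESeq2 called 3, edgeR with the replicate block 44, DESeq2 with the replicate block 452 and edgeR without both libraries numbered 2 called 2. Leaving out single libraries gave 0 to 1. The block also ended the call of Chat. It changed 0 calls among the other pathway genes, and calls of the 10 genes and of those chosen for likeness to Jag1 are not read. Chat kept its direction, with an adjusted p of 7.2e-42 to 0.247 over the alternatives, and its edgeR call was lost with the block and without Chat negative 1 or 3 or Chat positive 1 or 3. The Jag1 log2 change stayed between -0.94 and -0.76 under all 13 alternatives, and was -0.86 with the replicate block. Notch1 (-0.28 to -0.17) and Lfng (-0.43 to -0.25) also kept their sign. The other 7 of the 10 genes changed sign in at least 1 alternative, as did 10 of the 23 other named pathway genes tested. Of the other pathway genes, DESeq2 with the block called 7, and every other alternative 0. Their median log2 change was -0.047 in the full fit, ran from -0.10 to -0.037 when single libraries were left out, and was -0.10 without Chat negative 2 and without Chat positive 3. The number test called 4208 genes and 4 of the 10. Without both libraries numbered 2 it called 0 and 0, with 2 libraries a number left to compare. The causes of these changes were not tested. Genes under about 1 CPM, such as the Delta ligands and Notch3, are limited by depth.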

Other observations

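Some pathway targets lay the other way in the libraries numbered 2. Id3, an inhibitor of E proteins, read 45.2, 113 and 36.8 CPM across Chat negative samples 1 to 3, and 45.4, 111 and 34.4 CPM across Chat positive samples 1 to 3. Il2ra stood at 3602, 5813 and 3723 CPM and at 4059, 5883 and 4132 CPM in the same order. Both passed the edgeR number test, which was chosen after the data were seen (adjusted p = 7.34e-06 and 1.83e-04). Gata3 also passed it (3.60e-04) and was lower in number 2, at 1841 and 1639 CPM against 2354 to 2494 CPM in the other libraries. In the gate comparison the log2 changes of Id3, Il2ra and Gata3 were -0.05 (SE 0.55), 0.08 (SE 0.23) and -0.10 (SE 0.20). Id3 is named here after its values were seen.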
